A study of Mus musculus with 44 samples.

Results

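The 10 chemokine genes described here, with known roles in brain inflammation, were followed through both count tables of a study of the mouse nucleus accumbens. They are Cxcl9, Cxcl10, Cxcl12, Cxcl16, Ccl2, Ccl3, Ccl4, Ccl5, Ccl12 and Cx3cl1, taken by gene symbol from the Ensembl identifiers of the tables. All 10 were found in each table, among 55487 genes. The study asked how the accumbens transcriptome responds to virally overexpressed RXRa, the retinoid X receptor alpha, which binds DNA as a partner of other nuclear receptors. In bulk tissue, males received a herpes simplex virus vector, HSV-GFP (4 libraries) or HSV-RXRa-GFP (4 libraries). The sorted nuclei belong to populations named D1 and D2 after the dopamine receptors Drd1 and Drd2 of striatal neurons. Their vectors were AAV9-CAG-DIO-EGFP and AAV9-CAG-DIO-EGFP-P2A-RXRa, whose DIO insert is switched on by Cre recombinase. The sorted libraries with a group number 5 in D1 females with EGFP and 4 with RXRa, 5 and 4 in D1 males, 4 and 4 in D2 females, and 5 and 4 in D2 males. Every animal thus carried a virus and a fluorescent protein, and no group without a virus was analysed here. Strain, age, Cre driver, time after infusion and whether animals were pooled are not given in the sources used here, so the p-values measure the spread between these libraries, which may be technical.

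Chemokines are small secreted proteins that bind G protein-coupled receptors and direct the movement of leukocytes along gradients. Inflammatory members such as Cxcl9, Cxcl10, Ccl2 and Ccl5 are made by glia, endothelium and incoming leukocytes after interferon, tumour necrosis factor or interleukin-1 signals, largely through interferon regulatory factors and NF-kB. Cxcl12 and Cx3cl1 are present in healthy brain: Cxcl12 guides and retains cells through Cxcr4, and Cx3cl1, or fractalkine, is a membrane-bound neuronal ligand read by microglia through Cx3cr1.

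The promoters of 3 members are shown because they stand for the inflammatory and the constitutive kind. The reference table of RefSeq (GRCm38.p6) held a promoter window for 6 of the 10 genes, and each stretch printed is the 250 bases upstream of the annotated start on the gene's strand, 5′ to 3′. Capitals mark matches to the interferon-stimulated response element core (GAAA, any 2 bases, GAAA) or to the NF-kB consensus, searched on both strands together with the gamma-interferon-activated site core TTCNNNGAA.
Cxcl10, chr5:92348890-92349139, minus strand: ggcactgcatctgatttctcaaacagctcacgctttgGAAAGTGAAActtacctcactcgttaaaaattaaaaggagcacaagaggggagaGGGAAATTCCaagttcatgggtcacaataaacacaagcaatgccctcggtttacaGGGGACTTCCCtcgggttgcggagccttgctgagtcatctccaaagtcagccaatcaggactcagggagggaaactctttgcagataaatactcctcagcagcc
Cxcl9, chr5:92328080-92328329, minus strand: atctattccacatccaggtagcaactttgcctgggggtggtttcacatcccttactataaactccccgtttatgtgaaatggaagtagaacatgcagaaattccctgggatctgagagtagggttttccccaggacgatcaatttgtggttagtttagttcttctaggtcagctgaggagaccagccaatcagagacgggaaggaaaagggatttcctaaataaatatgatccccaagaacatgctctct
Cxcl12, chr6:117168285-117168534, plus strand: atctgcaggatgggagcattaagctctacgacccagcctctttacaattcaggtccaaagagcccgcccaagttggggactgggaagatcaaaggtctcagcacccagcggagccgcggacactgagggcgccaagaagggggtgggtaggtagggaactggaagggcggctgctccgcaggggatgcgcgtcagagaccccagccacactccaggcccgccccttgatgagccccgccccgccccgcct
In Cxcl10 the interferon core lay 213 to 204 bases upstream of the start. Its NF-kB matches lay 159 to 150 bases upstream and, as an overlapping pair, 104 to 95 and 103 to 94 bases upstream. The windows of Cxcl9, Cxcl12, Ccl3, Ccl12 and Cx3cl1 held none of the 3 motifs, which says only that these letters are not in those 250 bases. Among 32851 windows of the same length, 2.98% held the interferon core, 7.25% the NF-kB consensus and 7.02% the gamma-interferon core. A match is a description of the sequence and not a measured site.

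Total counts ranged from 21567565 to 29167142 over the 8 bulk libraries and from 12211655 to 27757463 over the 35 sorted libraries with a group. The vector's RXRa sequence had no count in any of the 4 bulk GFP libraries and 567 to 914 counts in the RXRa libraries. In sorted nuclei it had 0 to 17 counts under EGFP and 1216 to 13017 under RXRa, so the labels and the vector matched. Drd2 lay between 48.9 and 106 CPM (counts per 1000000 of the scaled library total) in D1 libraries and between 519 and 1776 CPM in D2 libraries. Drd1 ranges were 30.6 to 83.7 CPM in D1 and 6.48 to 38.6 CPM in D2 and overlapped.

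In bulk accumbens, Ccl5 rose 2.55-fold under RXRa, and it was the only one of the 10 chemokines to pass the test over all genes. Cxcl9, Cxcl10, Cxcl16, Ccl2, Ccl4 and Ccl12 had log2 fold changes between 0.54 and 1.47, each with an unadjusted p under 0.05 and an adjusted p above it. Ccl3, Cxcl12 and Cx3cl1 had log2 fold changes of 0.40, -0.21 and -0.13. The calls come from edgeR's quasi-likelihood test with Benjamini-Hochberg adjustment over 18579 genes, of which 687 (3.7%) were called, 559 of them higher (3.01%). The median log2 fold change of the 10 members was 0.70, beside -0.02 over all genes tested, and 7 of the 10 had an unadjusted p under 0.05 beside 21.5% of all genes. The number of members called was 3 without GFP library 1, 4 without RXRa library 1 and 0 without GFP 4 or RXRa 4. Over all genes, leaving out 1 library gave 9 to 1016 calls in bulk. DESeq2 called 4 members (Cxcl10, Cxcl16, Ccl5 and Ccl12), beside 1596 of 18579 genes. Without a filter on low counts, edgeR called 4 members (Cxcl9, Cxcl10, Cxcl16 and Ccl5), beside 888 of 35847 genes. In bulk tissue, more cells of a type and more RNA per cell cannot be told apart.

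**Figure D1:**
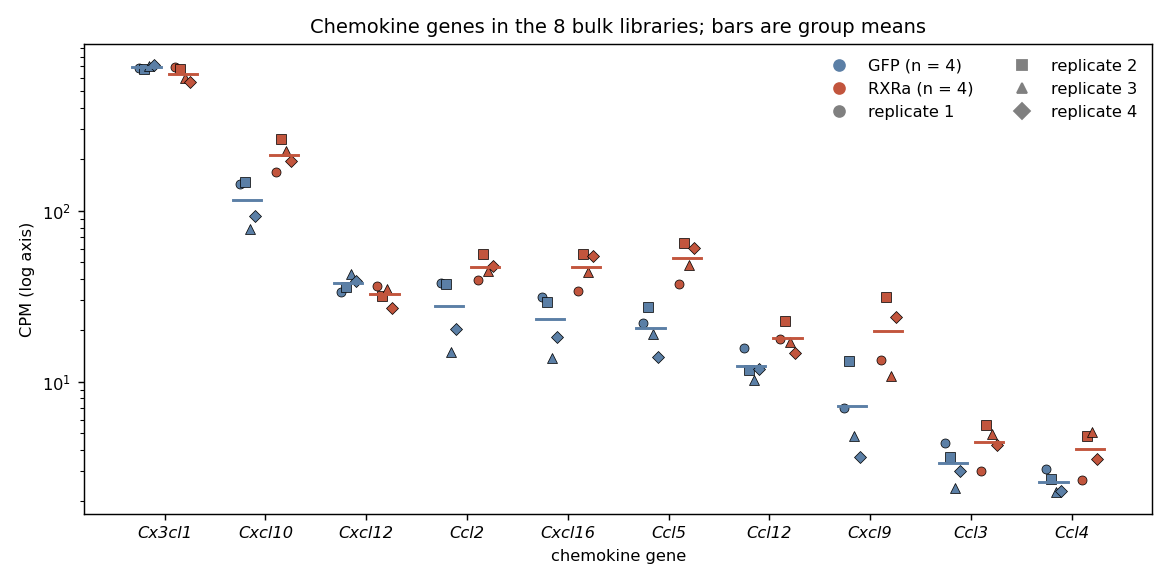
Level of each chemokine gene in CPM (log axis) in the 4 GFP and 4 RXRa bulk libraries, with symbols for the replicate number and horizontal bars for group means. The groups are apart for Cxcl10, Ccl2, Cxcl16 and Ccl5 and overlap for the other 6 genes, and Cx3cl1 stands highest at 569 to 711 CPM.

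Ccl5 (RANTES), a chemokine that attracts T cells and monocytes, stood at 22.2, 27.5, 19.1 and 13.9 CPM in GFP libraries 1 to 4. In RXRa libraries 1 to 4 it stood at 37.3, 64.8, 48.4 and 60.6 CPM. Every RXRa library was above every GFP library, with RXRa 1 nearest to the controls. The log2 fold change was 1.35 ± 0.22 (SE, n = 4 and 4; adjusted p = 0.0162, edgeR). Leaving out GFP 4 gave an edgeR adjusted p of 0.0617, leaving out RXRa 4 gave 0.0595, and either removal ended the call.

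Ccl3 and Ccl4 (MIP-1 alpha and beta) are related inflammatory chemokines made by activated microglia and macrophages. Ccl4 was at 3.07, 2.71, 2.25 and 2.29 CPM in the GFP libraries and at 2.65, 4.81, 5.07 and 3.56 CPM in the RXRa libraries. RXRa 1 fell among the controls and the other 3 RXRa libraries lay above all of them. The log2 fold change was 0.64 ± 0.22 (SE; adjusted p = 0.137, edgeR). Ccl3 ranged from 2.40 to 4.42 CPM under GFP and from 3.00 to 5.57 CPM under RXRa, with overlapping groups and a log2 fold change of 0.40 ± 0.23 (SE; adjusted p = 0.361, edgeR).

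Cxcl9 and Cxcl10 are interferon-induced ligands of Cxcr3, the receptor of activated T and NK cells. Cxcl10 was at 144, 147, 77.9 and 93.3 CPM in GFP libraries 1 to 4 and at 168, 265, 225 and 196 CPM in RXRa libraries 1 to 4. The groups did not overlap, although GFP 1 and 2 came near RXRa 1. Its log2 fold change was 0.88 ± 0.22 (SE; adjusted p = 0.0603, edgeR). Cxcl9 was at 7.03, 13.3, 4.81 and 3.63 CPM under GFP and at 13.5, 31.4, 10.9 and 24.0 CPM under RXRa. Its highest GFP library was 3.66 times its lowest, the largest such ratio among the 10 in either bulk group, and GFP 2 lay above RXRa 3. Its log2 fold change of 1.47 ± 0.44 (SE; adjusted p = 0.102, edgeR) was the largest of the 10 in size.

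Cxcl16, a transmembrane chemokine that is shed from cells and binds Cxcr6 on T and NK cells, was at 31.6, 29.2, 13.8 and 18.2 CPM under GFP. Under RXRa it was at 33.8, 56.2, 43.8 and 54.3 CPM. The groups did not overlap, but RXRa 1 was close to GFP 1. The log2 fold change was 1.02 ± 0.26 (SE; adjusted p = 0.0688, edgeR).

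Ccl2 and Ccl12 (MCP-1 and MCP-5) are ligands of Ccr2 that bring monocytes into tissue. Ccl2 was at 38.1, 37.5, 14.9 and 20.4 CPM under GFP and at 39.7, 55.7, 44.4 and 47.8 CPM under RXRa. RXRa 1 was only just above GFP 1 and 2, while GFP 3 and 4 were lower. The log2 fold change was 0.76 ± 0.28 (SE; adjusted p = 0.160, edgeR). Ccl12 was at 15.9, 11.7, 10.2 and 11.96 CPM under GFP and at 17.7, 22.6, 17.0 and 14.8 CPM under RXRa. RXRa 4 fell below GFP 1, and the log2 fold change was 0.54 ± 0.16 (SE; adjusted p = 0.102, edgeR).

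The constitutive pair differed least in size. Cxcl12 was at 33.4, 35.8, 43.0 and 38.8 CPM under GFP and at 36.3, 31.8, 35.04 and 27.0 CPM under RXRa, overlapping, with a log2 fold change of -0.21 ± 0.11 (SE; adjusted p = 0.290, edgeR). Cx3cl1 was at 686, 676, 701 and 711 CPM under GFP and at 693, 677, 597 and 569 CPM under RXRa. The 4 GFP libraries differed from each other by a factor of 1.05, and RXRa 3 and 4 were below all of them while RXRa 1 and 2 lay within their range. The log2 fold change of Cx3cl1 was -0.13 ± 0.07 (SE; adjusted p = 0.338, edgeR).

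The RXRa libraries were above all GFP libraries for 4 of the 10 genes, Cxcl10, Cxcl16, Ccl2 and Ccl5, beside 6.64% of all genes tested, and below all of them for none, beside 6.54%. Other annotated genes on the opposite strand overlap 3 of these 4: Cxcl10 lies within Art3, Cxcl16 overlaps Zmynd15 and Ccl2 overlaps Gm17268. The sources used here do not state whether counting used strand, so the origin of their reads is uncertain, as is the split between the similar genes Ccl2 and Ccl12. Ccl5 has no overlapping gene.

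Per kilobase of exon, the GFP levels ran from Cx3cl1 at 176.5 ± 3.92 CPM per kb (SD, n = 4) through Cxcl10 at 51.4 ± 15.7 (SD), Ccl2 at 24.4, Ccl12 at 23.1, Ccl5 at 21.6, Cxcl16 at 7.68, Cxcl12 at 4.62, Ccl3 at 4.40, Ccl4 at 3.91 and Cxcl9 at 2.39 CPM per kb. Ranges of neighbours in that order overlapped except between Cx3cl1 and Cxcl10, between Cxcl10 and Ccl2 and between Ccl5 and Cxcl16. Under RXRa, Ccl5 reached 55.0 ± 13.0 CPM per kb (SD), beside 41.2 ± 5.95 for Ccl2 and 33.6 ± 6.12 for Ccl12.

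The members also varied together within the groups. RXRa 2 was the highest RXRa library for 7 members and RXRa 1 the lowest for 6, and GFP 3 was the lowest control for 6. Across the 8 bulk libraries, deviations from the group means correlated positively in all 28 pairs among the 8 genes other than Cxcl12 and Cx3cl1, with a median Pearson r of 0.67 and a range of 0.20 to 0.96. Cxcl12 and Cx3cl1 with those 8 gave a median r of -0.35, and 1 of 16 pairs was above 0. The libraries share their RNA composition and depth across genes, so these values are descriptions. The genes whose bulk profile was most like the mean of the 10, of 15997 compared over the 8 libraries, were Gbgt1 (r = 0.985), Dennd3 (0.981), Gm46224 (0.975), Pim1 (0.975) and Rfc2 (0.975).

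The receptors of these ligands were measured in the same libraries. Of 23 listed chemokine receptor genes, 17 were tested. In bulk 5 were called higher and none lower, beside 3.01% of all genes called higher and 0.689% called lower. The list's median log2 fold change was 1.25, beside -0.02 over all genes. The 5 were Cxcr3 (log2 fold change 1.92 ± 0.43 SE, edgeR adjusted p = 0.0457), Cxcr4 (1.31 ± 0.28 SE, edgeR adjusted p = 0.0381), Ccr7, Ccr9 and Ccrl2 (1.96, 1.97 and 1.29). Cxcr3, the receptor of Cxcl9 and Cxcl10, was low, from 0.562 to 1.66 CPM under GFP and from 1.80 to 5.10 CPM under RXRa, and its groups did not overlap. Cxcr4, the receptor of Cxcl12, ranged from 5.40 to 12.3 CPM under GFP and from 15.4 to 30.9 CPM under RXRa. Ccr7 guides T cells and dendritic cells to lymph nodes, Ccr9 guides lymphocytes to the gut, and Ccrl2 binds chemerin.

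Some further receptors are named as known partners of the 10 ligands, with their values already seen. Ccr2 and Cxcr6 had log2 fold changes of 1.40 and 1.25 with edgeR adjusted p of 0.0693 and 0.163. Cx3cr1, the microglial receptor of Cx3cl1, stood at 132 ± 23.2 CPM under GFP and 130 ± 22.3 CPM under RXRa (SD, n = 4 each), a log2 fold change of -0.03 ± 0.15 (SE; adjusted p = 0.935, edgeR). Ackr3, the scavenger receptor of Cxcl12, had a log2 fold change of -0.02 (edgeR adjusted p = 0.944). Values for receptors of the inflammatory ligands and for that of Cx3cl1 are set side by side here, and their difference was not tested.

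Of 26 other chemokine genes, 15 were tested and 2 were called, both higher, beside 3.01% of all genes called higher. Cxcl11, the third ligand of Cxcr3, rose from 3.34 ± 0.689 to 11.4 ± 2.92 CPM (SD, n = 4 each; log2 fold change 1.76, edgeR adjusted p = 0.00816). Xcl1, made by activated T and NK cells, rose from 0.766 ± 0.297 to 2.47 ± 0.309 CPM (SD; log2 fold change 1.68, edgeR adjusted p = 0.0143). The list's median was 0.29, and neither gene was called without GFP 4.

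Of 35 cytokine and signalling genes that induce or restrain chemokine transcription, 34 were tested. Of these, 10 were called higher and none lower, beside 3.01% of all genes called higher and 0.689% called lower. The list's median log2 fold change was 0.77, and all 34 values were above 0. The 4 largest called were the cytokine gene Ltb (1.49), the feedback inhibitor Socs1 (1.37), and the interferon pathway factors Irf7 (1.20) and Stat2 (1.10), with edgeR adjusted p of 0.0412, 0.0155, 0.0142 and 0.00688. Stat2 ran from 139.7 to 186 CPM under GFP and from 295 to 360.5 CPM under RXRa, with no overlap. Of 8 shedding proteases and matrix partners, 1 was called higher, beside the same 3.01% of all genes. It was Dpp4, a protease that trims the amino end of several chemokines, with a log2 fold change of 1.57 (edgeR adjusted p = 0.0315). Single libraries moved these counts, as they moved the calls over all genes, which ran from 9 to 1016. The receptors called numbered 0 without GFP 4, 1 without GFP 2, GFP 3 or RXRa 4, 2 without RXRa 2 or RXRa 3, and 8 without RXRa 1. The signalling genes called numbered 1 without GFP 4, 5 without RXRa 2 or RXRa 4, 6 without RXRa 3 and 16 without RXRa 1. Dpp4 was called in the full set and without RXRa 1, and was lost when any other library was left out.

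**Figure D2:**
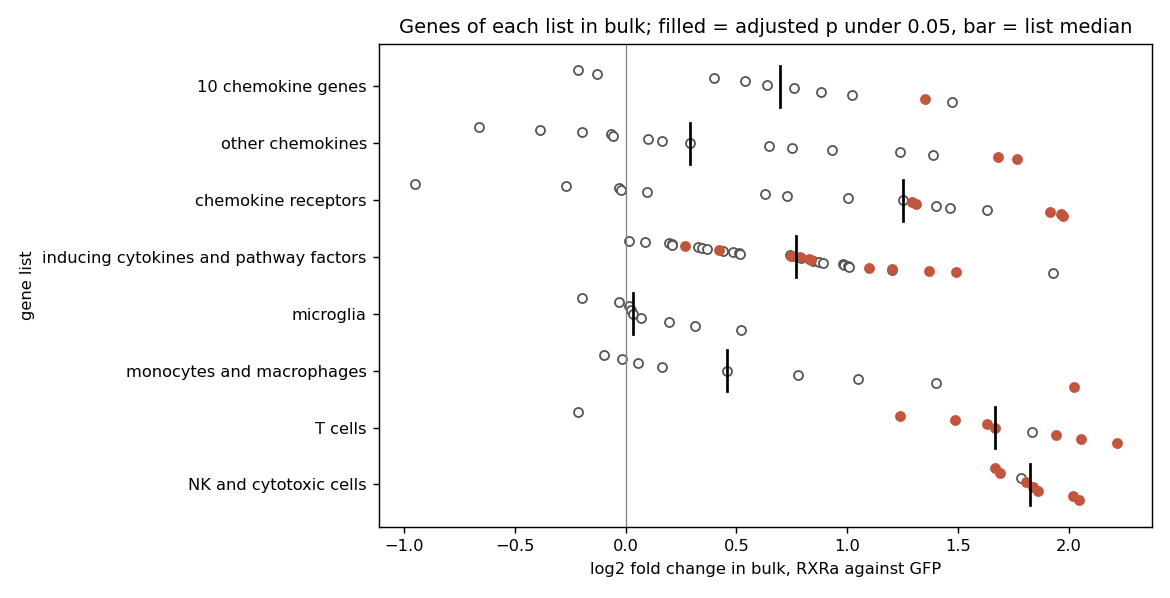
Log2 fold change in bulk, RXRa against GFP, for each tested gene of the 10 chemokines, 3 pathway lists and 4 leukocyte or microglial marker lists. Filled points passed the adjusted p of 0.05 and vertical bars are list medians, which run from 0.03 for microglia to 1.82 for NK and cytotoxic cells.

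T cell markers and NK and cytotoxic markers rose in the same comparison, beside 3.01% of all genes called higher. Of 9 T cell markers, 7 were called higher, led by Cd3d (log2 fold change 2.22), Cd3e (2.05) and Cd3g (1.94). Of 8 NK and cytotoxic markers, 7 were called higher, led by Eomes (2.05), Klrk1 (2.02) and Ncr1 (1.86). The summed level of the 8 was 18.9 to 24.6 CPM under GFP and 41.2 to 103 CPM under RXRa. RXRa 2 was highest and RXRa 1 lowest in that sum, as for Cxcl10, Cxcl16, Ccl2, Ccl3 and Ccl5 but not for Cxcl9, Ccl4 or Ccl12. The same order held for the summed markers of T cells, B cells, monocytes and macrophages, microglia, astrocytes, endothelium and oligodendrocytes. It is thus not particular to the NK and cytotoxic markers, and it did not hold for the neutrophil or neuronal sums. The summed T cell markers ran from 54.0 to 68.8 CPM under GFP and from 64.3 to 119 CPM under RXRa, so the groups overlapped. Most of that sum was Cd4, at 46.0 ± 6.78 CPM under GFP and 39.6 ± 6.91 CPM under RXRa (SD, n = 4 each; log2 fold change -0.22, adjusted p = 0.394, edgeR), which is named after its values were seen. No marker of either list was at 0 in a whole group. Leaving out each library was tried for the marker lists after the data were seen, with 9 to 1016 calls over all genes. The T cell markers called numbered 0 without GFP 4 or RXRa 4, 1 without GFP 3, 2 without GFP 1, GFP 2 or RXRa 2, 5 without RXRa 3 and 8 without RXRa 1. The NK and cytotoxic markers called numbered 0 without GFP 4, 4 without GFP 2 or RXRa 4, and 6 to 8 without any other library.

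Of 9 monocyte and macrophage markers 1 was called higher (Ly6c2, 2.02), beside 3.01% of all genes called higher and 0.689% called lower. Of the 9, 7 had log2 fold changes above 0 and 4 of them an unadjusted p under 0.05, beside 21.5% of all genes. Their median log2 fold change was 0.46. The sum of these 9 markers was 132.5 to 343 CPM under GFP and 282 to 500.3 CPM under RXRa. None of 9 microglial markers was called, 1 had an unadjusted p under 0.05, and their sum was 725 to 1061 CPM under GFP and 788 to 1110 CPM under RXRa. Aqp4 of 6 astrocyte markers and Cdh5 and Ly6c1 of 6 endothelial markers were called higher (0.57, 0.59 and 0.67). Gpr6 of 5 D2 neuron markers and Bcl11b of 5 projection neuron markers were called lower, by 0.39 and 0.31 on the log2 scale. No tested marker of neutrophils (2), B cells (3), oligodendrocytes (5) or D1 neurons (5) was called. Neutrophil markers summed to 2.61 ± 1.08 CPM under GFP and 1.36 ± 0.674 CPM under RXRa (SD, n = 4 each). Without GFP 4, edgeR called no gene of any marker list. Monocyte and macrophage markers called numbered 2 without GFP 1 and 3 without RXRa 1, and 2 B cell markers were called without RXRa 1. Without GFP 3, 1 of 3 neutrophil markers tested was called, and it was lower under RXRa. For endothelium, 1 marker was called without GFP 2, RXRa 2, RXRa 3 or RXRa 4. The calls of Aqp4 and Gpr6 were each lost without GFP 2, GFP 3, RXRa 2, RXRa 3 or RXRa 4 too, and that of Bcl11b without GFP 1, GFP 2, GFP 3, RXRa 3 or RXRa 4. The part of these cell types in the chemokine values was not tested.

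In sorted nuclei, 8 of the 10 chemokines were at or near the level of genes that bulk tissue did not express. Ccl3 stood above that level and Cx3cl1 far above it. The total RNA of nuclei includes introns and reads outside genes, so each level is given per kilobase of gene body beside 1957 protein-coding genes of 1 to 15 kb to which bulk tissue gave no reads at all, the silent genes. Their median ran from 0.453 to 0.547 CPM per kb over the 8 sorted groups, and their 95th percentile from 0.838 to 0.964. Among the 10 chemokines, 8 lay between the 5th and 95th percentile of silent genes in all 8 groups, from 0.326 CPM per kb for Cxcl10 to 0.876 for Ccl4. Ccl3 lay above the 95th percentile of the same group in all 8, at 0.901 to 1.43 CPM per kb. That was 1.925 to 2.785 times the silent median and the 95.9th to 99.3rd percentile of silent genes. Cx3cl1, at 5.10 to 11.5 CPM per kb, was 9.61 to 24.6 times the silent median. Values of the 8 genes near the silent level cannot be told apart from background reads.

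**Figure D3:**
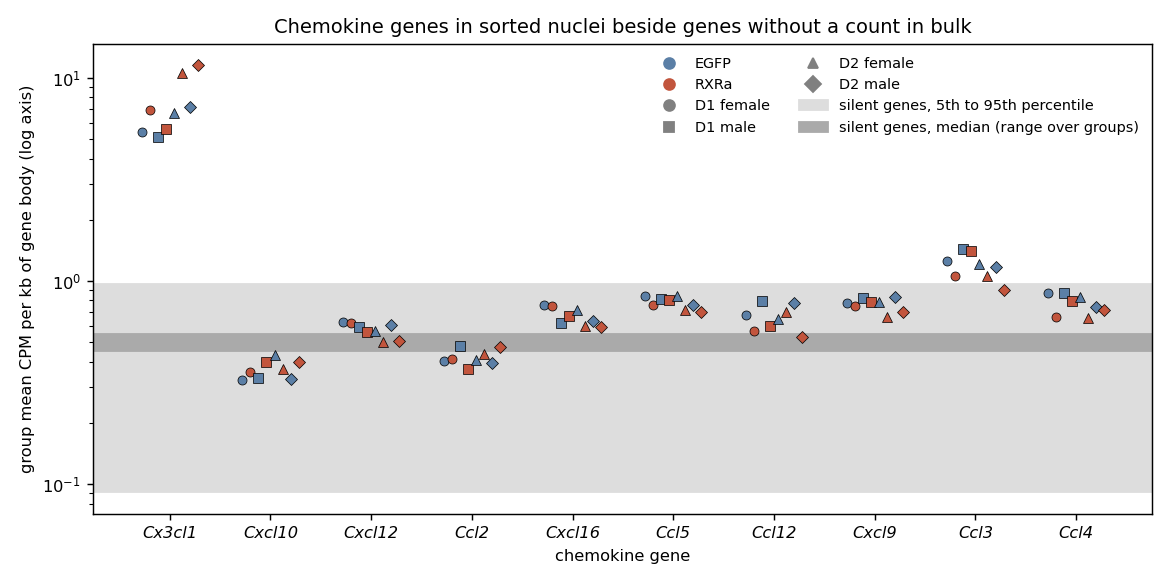
Group mean level of each chemokine in sorted nuclei, in CPM per kb of gene body (log axis), by population, sex and vector. The light band spans the lowest 5th to the highest 95th percentile of silent genes over the 8 groups and the dark band the range of their medians, and only Cx3cl1 is far above both.

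Cx3cl1 was thus the one member far above the silent genes in the sorted nuclei. Under EGFP it stood at 56.6 ± 23.2 CPM in D1 females (SD, n = 5), 53.1 ± 25.3 in D1 males (n = 5), 70.0 ± 33.3 in D2 females (n = 4) and 74.8 ± 22.1 in D2 males (n = 5). D2 against D1 under EGFP gave a log2 fold change of 0.40 ± 0.26 (SE; adjusted p = 0.582, edgeR). None of the 10 was called in that comparison, beside 0.121% of all genes (0.0478% higher and 0.0729% lower), and none had an unadjusted p under 0.05, beside 10.5% of all genes. The ranges of all 4 control groups overlapped.

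With RXRa in D2 nuclei, the lowest, median and highest Cx3cl1 library were at 39.0, 119 and 181 CPM (n = 8), beside 42.0, 73.0 and 119 CPM under EGFP (n = 9). D2 male RXRa 1 was the lowest of all 17 libraries, 4 RXRa libraries lay above every control, and the groups overlapped. The log2 fold change was 0.67 ± 0.27 (SE; adjusted p = 0.0703, edgeR). Of 27 alternative fits, 3 gave an adjusted p under 0.05, and the rest did not. These were edgeR fits that left out 1 library. The edgeR adjusted p was 0.0130 without D2 male RXRa 1, 0.0244 without D2 female EGFP 3 and 0.0436 without D2 female RXRa 3. Over all genes, 9683 of 43902 were called in D2 with every library, and 0 to 14763 leaving out 1 library. The 5 projection neuron markers rose in the same D2 comparison, with a median log2 fold change of 0.57, and the share of counts on silent genes was 6.03% ± 0.241 under EGFP and 5.02% ± 0.811 under RXRa (SD, n = 9 and 8). With that share as a covariate, a fit that called 0 of 43902 genes, the Cx3cl1 log2 fold change was 0.18 ± 0.31 (SE; adjusted p = 1.0, edgeR). In D1 nuclei the lowest, median and highest were 41.1, 60.4 and 108 CPM under RXRa (n = 8) and 31.0, 47.3 and 93.8 CPM under EGFP (n = 10), a log2 fold change of 0.25 ± 0.26 (SE; adjusted p = 0.783, edgeR). The RXRa effect in D2 minus that in D1 was 0.42 ± 0.38 (SE; adjusted p = 0.705, edgeR).

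**Figure D4:**
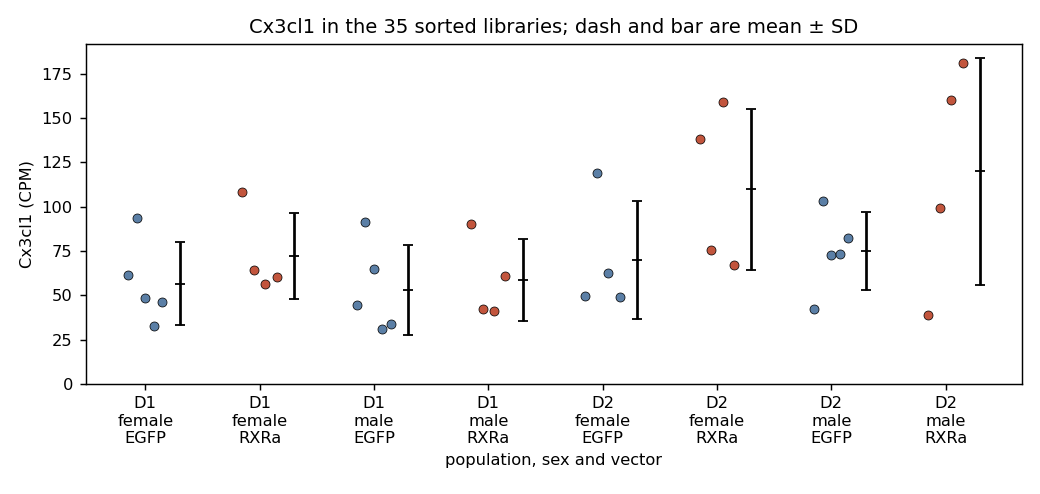
Cx3cl1 in CPM in each of the 35 sorted libraries by population, sex and vector, with the mean and SD of each group as a dash and bar. The D2 RXRa groups average 109.9 CPM in females and 119.9 CPM in males, and every RXRa group overlaps its EGFP control.

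In D2 nuclei, 2 of the 10 chemokines were called, both lower under RXRa, beside 22.1% of all genes called and 7.14% called lower. An unadjusted p under 0.05 was reached by 3 of the 10, beside 37.1% of all genes, and none was called higher, beside 14.9%. Cxcl9 fell by 0.24 ± 0.09 on the log2 scale (SE; adjusted p = 0.0403, edgeR), from 5.47 ± 0.545 to 4.61 ± 0.616 CPM (SD, n = 9 and 8). Cxcl12 fell by 0.22 ± 0.08 (SE; adjusted p = 0.0375, edgeR), from 7.54 ± 0.444 to 6.44 ± 0.916 CPM (SD). Both lay within the silent range per kilobase, and the silent-gene share was lower under RXRa, as given above. With the silent-gene share as a covariate, no member was called, beside 0 of all 43902 genes, and the values of Cxcl9 and Cxcl12 were -0.08 and -0.12. The share itself differed between the vectors, so this fit cannot tell a vector effect from a change in background. Both calls were also lost with DESeq2, which called 9879 of 43902 genes. The count was 0 without D2 female EGFP 1 or 5, D2 female RXRa 4, D2 male EGFP 1 or D2 male RXRa 3 or 5, and 1 without D2 female EGFP 4, D2 female RXRa 2, D2 male EGFP 3 or 4 or D2 male RXRa 2. Over all genes, 6548 were called higher and 3135 lower in D2 with TMM scaling, beside 2063 and 9325 with library totals, which moved the median log2 fold change of all genes from -0.04 to -0.20. Of the lists, 1 of 25 other chemokines was called higher and 2 lower, 1 of 23 receptors each way, and 3 of 35 signalling genes each way.

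In D1 nuclei, none of the 10 was called by edgeR, beside 0.0% of all genes. Ccl4 (log2 fold change -0.25) and Ccl12 (-0.33) had an unadjusted p under 0.05, beside 8.02% of all genes. DESeq2 and limma also called none. The library D1 male EGFP 2 stood apart from its group, with chi-square over degrees of freedom of 55.1 to 63.6 against the other 4 libraries, beside 1.78 to 7.83 among those. Without it, edgeR called 0 members in D1, in D1 males, in the interaction and in D2 against D1 under EGFP, and Cx3cl1 had log2 fold changes of 0.39 in D1 and 0.54 in D2 against D1. The interaction of vector and population was called for none of the 10, beside 0.0% of all genes, and none had an unadjusted p under 0.05, beside 8.22%. Within each sex and population, edgeR called none of the 10, beside 0.0% of all genes in each of the 4 comparisons. An unadjusted p under 0.05 was reached by Ccl4 in D1 females (beside 6.29% of all genes), by none in D1 males (3.02%), by Cxcl9 in D2 females (25.2%) and by Cxcl12 in D2 males (19.7%). In D2 females, 1 member was called without D2 female RXRa 3. Over all genes, leaving out 1 library gave 0 to 6701 calls in D2 females. Complete separation of the vectors was seen for Ccl4 in D1 females (RXRa lower, beside 1.42% of all genes), for Cxcl9 and Ccl5 in D2 females (lower, beside 3.75%) and for Cxcl12 in D2 males (lower, beside 1.44%). In D1 males no member was separated, beside 0.44% of genes above and 0.854% below, and no member was above all its controls in D1 females (beside 1.04%), D2 females (2.33%) or D2 males (1.15%).

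**Figure D5:**
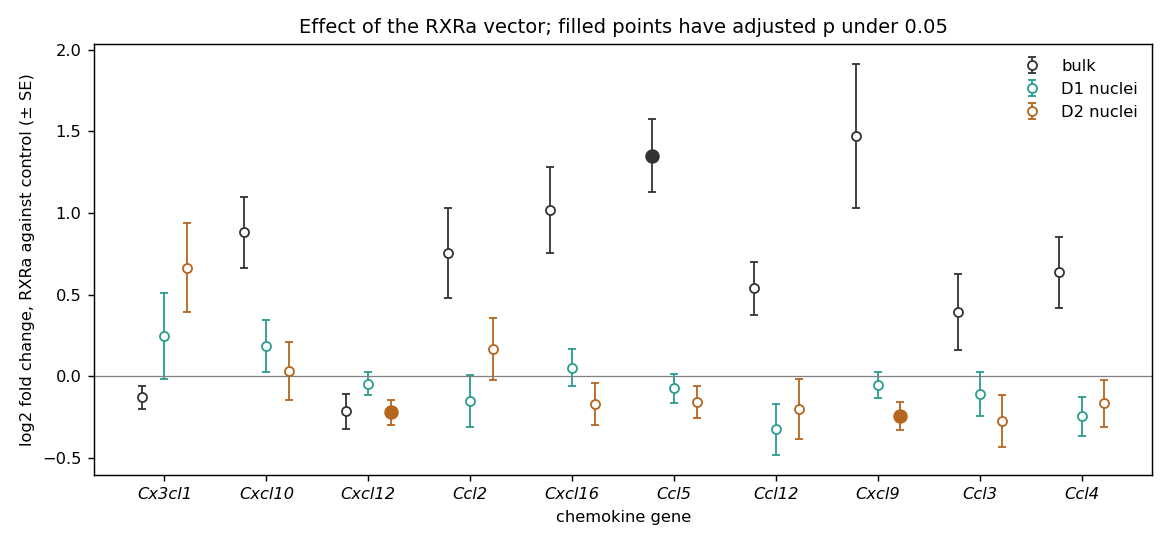
Log2 fold change (± SE) of each chemokine, RXRa against the matched control, in bulk tissue, D1 nuclei and D2 nuclei, with filled points for adjusted p under 0.05. Ccl5 is filled in bulk at 1.35, and Cxcl9 and Cxcl12 are filled in D2 at -0.24 and -0.22.

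The bulk and sorted values differ in the cells sampled (whole tissue against sorted nuclei), vector, library preparation and sex and were not compared by a test. Ccl5 had log2 fold changes of 1.35 in bulk, -0.07 in D1 and -0.16 in D2, and Cxcl10 had 0.88, 0.19 and 0.03. In all 8 sorted groups both genes lay between the 5th and 95th percentile of silent genes.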

How the data were processed

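RNA was measured in bulk accumbens (poly(A)-selected libraries) and in sorted nuclei (ribosomal-RNA-depleted total RNA, a stranded low-input kit), per the labels' protocols. The authors deposited unnormalized whole-number gene counts, 1 table for each kind. The submitters' processing notes name FastQC, Trimmomatic, HISAT2, Picard, featureCounts, Subread and GRCm38, with no role or version; the annotation release and use of strand are not given in the sources used here. Of the 55487 gene identifiers, 55394 matched GENCODE M21, used here for positions and lengths.

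Counts were tested with edgeR 4.0.16 (R 4.3.3): quasi-likelihood test, filterByExpr, TMM scaling and Benjamini-Hochberg adjustment over all genes tested in a table, called at 0.05. Bulk was fitted with its 8 libraries, and the 35 assigned sorted libraries were fitted as 8 groups; 1 sorted library with conflicting labels entered no comparison. SEs were derived from the log2 fold change, its p and the total degrees of freedom of the edgeR test. Vector entries stayed out of library sizes and tests. All 10 members passed the filter in both tables. Over the 72 pairs of replicates, chi-square divided by its degrees of freedom ran from 1.78 to 63.6 (to 32.1 without D1 male EGFP library 2), so each library counted as 1 replicate. Alternatives used DESeq2 1.42.0, limma 3.58.1, other scalings and filters, the replicate number as a block, the share of counts on silent genes as a covariate, and leaving out each library. The scripts were tested on simulated data.

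Named genes are the 10 members, the called genes of each pathway list (at most 5 by size of change), at most 3 per marker list and its first marker, and the 5 genes most like the members' mean profile. Some genes under this rule are not reported here. The members and lists were chosen with earlier results of these data known.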

Additional observations from a re-analysis of the deposited data

Results flagged for a closer look

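Single libraries stood apart from the rest of their group for 6 of 100 combinations of member and group checked by the gap to the nearest library, and chance marks about 1 in 20 such groups. Cx3cl1 in D1 females with RXRa had its highest library, replicate 1, at 108 CPM with the next at 64.3 CPM. In the same group, Ccl4 had its lowest library, also replicate 1, at 1.10 CPM with the next at 1.47 CPM. Ccl4 in D1 females with EGFP had its highest library, replicate 1, at 2.31 CPM with the next at 1.80 CPM. In D2 males with EGFP, Cxcl12 was lowest in replicate 2 at 7.36 CPM with the next at 7.80 CPM, and Ccl2 was highest in replicate 1 at 1.18 CPM with the next at 0.711 CPM. Ccl3 in D2 females with RXRa was lowest in replicate 4 at 0.871 CPM with the next at 1.76 CPM. All but Cx3cl1 and Ccl3 lay between the 5th and 95th percentile of silent genes.

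The sorted library with conflicting labels entered no comparison. It held 2941 counts of the vector's RXRa sequence, above the 0 to 17 counts of the sorted EGFP libraries. Its Cx3cl1 level was 86.8 counts per 1000000 of its total, within the 50.2 to 131 of the D2 female libraries on the same scale. Its Cxcl9 (6.01), Ccl2 (1.09), Ccl5 (5.12) and Ccl12 (1.53) were above every D2 female library, of which the highest were at 5.96, 1.05, 4.44 and 1.48.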

How the results depend on the processing

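The number of the 10 members called in bulk was 1, and it was 4 with DESeq2, 4 without a filter on low counts, 0 with the replicate block and 0 to 4 leaving out 1 library at a time. No member changed direction in bulk under any alternative run. In D2 nuclei the number was 2, and it was 0 with DESeq2, RLE size factors, no filter, the replicate block, the silent-gene share as a covariate and a fit of only the libraries compared, and 0 to 3 leaving out 1 library. In D2 females it was 0, and 0 to 1 leaving out 1 library. In bulk, leaving out 1 library gave 0 to 8 receptors called, 0 to 2 other chemokines, 1 to 16 signalling genes and 0 to 1 shedding genes.

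Replicate numbers were not taken as pairs. Same-numbered bulk deviations correlated at -0.56 to 0.53, and 1 of 4 libraries correlated best with its own number. With 4 libraries in each bulk group, these values cannot settle whether equal numbers share a batch. With the replicate block, edgeR called 0 genes in bulk (3303 with an unadjusted p under 0.05) instead of 687, with Ccl5 at an adjusted p of 0.0624, and 1 gene in D2 instead of 9683. The block could not be fitted for D2 against D1 under EGFP. With the silent-gene share as a covariate 0 genes were called in D2 (1587 with an unadjusted p under 0.05), and DESeq2 called 1596 genes in bulk. A fit of only the D2 libraries called 2543 genes. For D2 against D1 under EGFP, 53 genes were called, 90 with the covariate and 133 with only the control libraries. Within a sex, where 0 genes were called, DESeq2 called 4 in D1 females and 12 in D2 males, and limma, the block and a fit of only the libraries compared called at most 1. Leaving out 1 library gave 9 to 1016 genes in bulk, 0 to 14763 in D2, 0 to 6701 in D2 females and 0 to 5985 in D2 males. The cause of these differences was not tested.

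Signs turned for some values in sorted nuclei, none of them called in the main fit. Among these, the main fit gave -0.27 for Ccl3 and -0.20 for Ccl12 in D2 and 0.25 for Cx3cl1 in D1. In D1, the silent-gene covariate gave 0.0368 for Cxcl9, 0.0114 for Cxcl12, 0.0954 for Ccl3 and -0.0415 for Cx3cl1, and library totals gave -0.0181 for Cxcl16. In D2, library totals gave -0.132 for Cxcl10, and the covariate gave 0.0949 for Ccl3 and 0.0561 for Ccl12. For the D2 minus D1 effect, library totals gave -0.00467 for Ccl4. Leaving out 1 library gave -0.0149 to 0.104 for Cxcl16 in D1, -0.0212 to 0.0893 for Cxcl10 in D2 and -0.0339 to 0.142 for Ccl4 in the D2 minus D1 effect. For D2 against D1 under EGFP it gave -0.0124 to 0.04998 for Cxcl9, -0.0661 to 0.0372 for Cxcl16 and -0.151 to 0.0435 for Ccl12. The cause was not tested. Cxcl10 had 8 to 24 counts per sorted library, so counting error limits what can be seen there.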
